A study of Homo sapiens with 6 samples.

Results

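The long noncoding RNAs (lncRNAs) described here are PAX8-AS1, NEAT1, MALAT1, PVT1, NORAD, MIR22HG, CYTOR, KCNQ1OT1 and H19. They are 9 of the 60668 genes in the expression table and were found by their Ensembl identifiers. PAX8-AS1 was chosen because it rose strongly in these libraries, so its values are given as a description with no test. The other 8 were chosen because they are well-known lncRNAs of stress or cancer. All 9 were among the 21101 genes tested, which had a mean of at least 1 over the libraries, and among the 5051 lncRNA genes tested.

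MiaPaCa-2 is an established human pancreatic ductal adenocarcinoma (PDAC) cell line that lacks CDKN2A. The cells were kept for 48 h in low glucose (2.5 mM) or in control medium (25 mM), with 3 libraries of each, and the study describes the replicates as independent. They were parental cells with no other treatment. The columns av7 and av8 are named in the labels of low-glucose replicates 1 and 2. The columns av1 to av3 (control) and av9 (low glucose) were grouped by the run of their names. The control libraries held 9741183 to 10190154 reads on genes and the low-glucose libraries 10595408 to 13733477. Values below are normalised counts, meaning reads divided by the size factor of their library, and are therefore relative to the rest of the library. A change in the total RNA of a cell cannot be told apart from them.

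The libraries carried the markers of a carcinoma line of this kind. Reads of KRT8, a keratin, numbered from 36341 up to 42135 in control and from 21362 up to 27720 in low glucose. For VIM (vimentin) these ranges were 51599 to 59101 and 82449 to 107058. The epithelial adhesion genes EPCAM and CDH1 were near 0, with at most 3 reads in any library. CDKN2A, CDKN2B and the leukocyte markers PTPRC and CD3E had 0 reads in all 6. CD68, COL1A1 and PECAM1 did not exceed 15 reads. Mitochondrially encoded genes made up 2.47% to 3.82% of each control library and 4.65% to 5.12% of each low-glucose library, and their part in the results was not tested. Among the control libraries, av2 gave the lowest value for 7 of the 9 lncRNAs and the highest for the other 2, NORAD and KCNQ1OT1. Over all genes tested, av2 was the lowest or highest control in 72.7%, against 52.6% for av1 and 69.8% for av3, so by this measure av2 was close to av3. Values without av2 are given where they change a result, because of its place among these lncRNAs.

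lncRNAs are transcripts without a long reading frame, and many act as RNA, close to where they are made or as a scaffold for proteins. NEAT1 and MALAT1 remain in the nucleus, where NEAT1 holds paraspeckles together and MALAT1 gathers in nuclear speckles, the stores of splicing factors. NORAD works mainly in the cytoplasm as a sponge for PUMILIO proteins, MIR22HG and H19 are the primary transcripts of microRNAs, and KCNQ1OT1 silences genes on the chromosome it comes from. Several of the group are induced by DNA damage, hypoxia or heat in other cells.

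Of the 8 lncRNAs tested, 4 were higher in low glucose (NEAT1, MALAT1, MIR22HG and PVT1), 0 were lower and 4 did not pass the threshold of an adjusted p of 0.05. Among all genes tested, 30.9% passed, 14.7% as higher and 16.2% as lower. Among lncRNA genes tested, 18.6% passed, 12.1% as higher and 6.45% as lower. All 8 had a mean of at least 10, and among the 2586 lncRNA genes at that level 29.7% passed and 17.8% were higher. The same 4 lncRNAs had no overlap between the control and low-glucose values, as did 43.9% of all genes. With 3 libraries against 3, an exact permutation test of a single gene cannot give a p below 0.1. The median log2 fold change of the 8 was 0.24, beside 0.20 for lncRNA genes tested, 0.11 for those with a mean of at least 10 and 0.05 for all genes tested. When libraries were scaled by their total reads, the median over all genes became 0.13 and the higher genes made up 59.8% of the calls in place of 47.7%. NEAT1, MALAT1, MIR22HG and PVT1 were higher under that scaling as well.

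**Figure D1:**
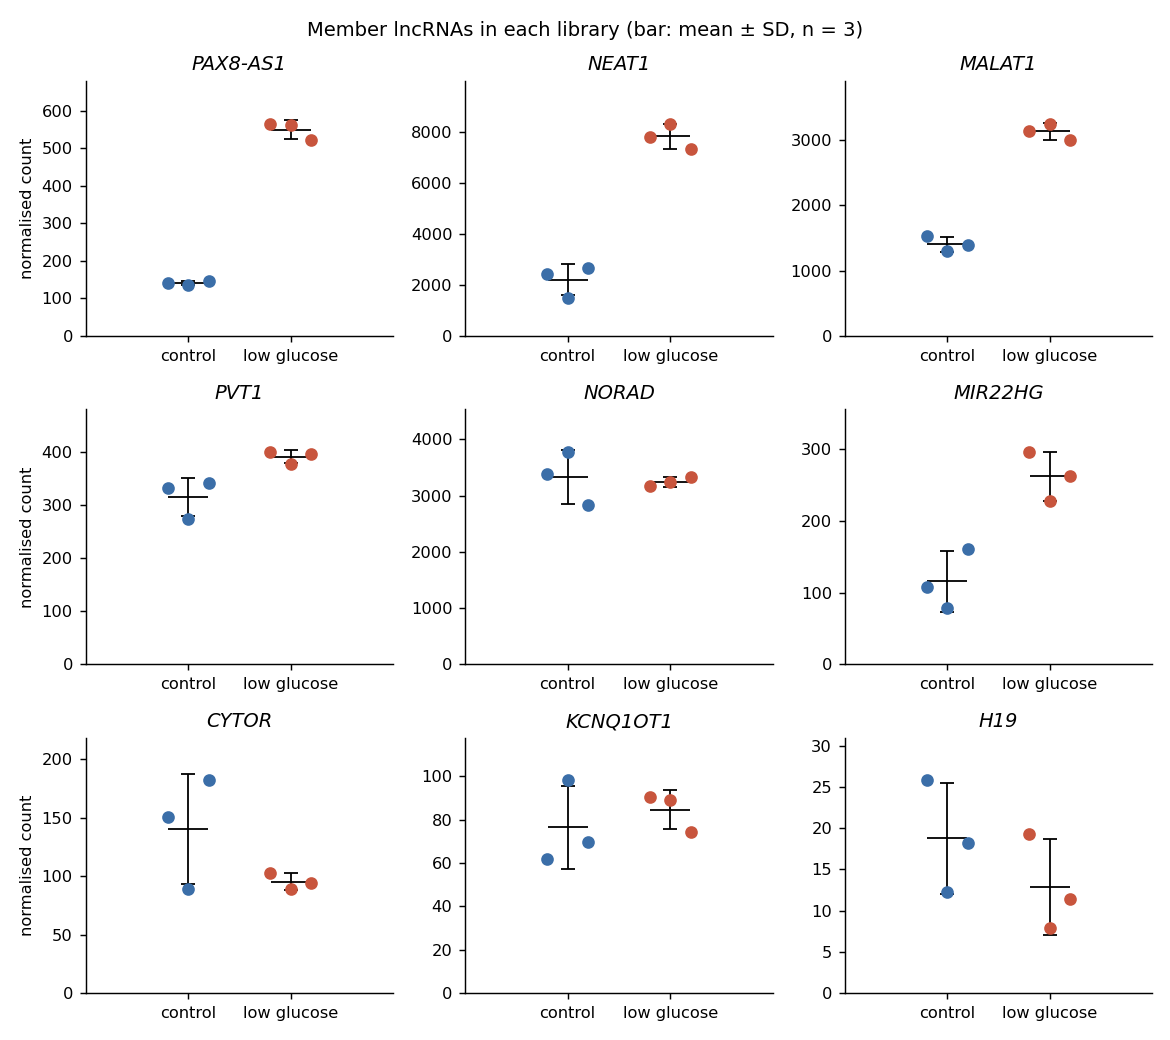
Normalised count (linear axis from 0) of each lncRNA in the 3 control libraries (blue) and the 3 low-glucose libraries (red), each group in the order of the library names, with the mean ± SD as bars. The groups are fully apart for PAX8-AS1, NEAT1, MALAT1, PVT1 and MIR22HG and overlap for NORAD, CYTOR, KCNQ1OT1 and H19.

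NEAT1 and MALAT1 rose together, and both are nuclear scaffold RNAs made from adjacent genes on chromosome 11. NEAT1 lies at chr11:65422774-65445540 (hg38, plus strand) and MALAT1 at chr11:65497640-65508073 on the same strand. Unlike most transcripts made by RNA polymerase II, MALAT1 and the long form of NEAT1 end where RNase P cuts off a tRNA-like structure, and their 3′ ends are protected by a triple helix in which an A-rich tract pairs with U-rich stretches. Their last 88 bases before that cut are shown because they set these RNAs apart from the polyadenylated members. The U-rich stretches (written as T) and the A-rich tract are in capitals, and the sequences were read from hg38 at chr11:65445453-65445540 and chr11:65506029-65506116, plus strand.
NEAT1: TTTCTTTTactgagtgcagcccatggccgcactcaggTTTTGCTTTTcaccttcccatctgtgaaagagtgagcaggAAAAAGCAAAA
MALAT1: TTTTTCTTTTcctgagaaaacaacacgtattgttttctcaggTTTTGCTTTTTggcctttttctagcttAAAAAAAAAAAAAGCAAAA

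NEAT1 had 2430, 1508 and 2672 normalised counts in control libraries av1, av2 and av3. In low-glucose libraries av7, av8 and av9 it had 7817, 8329 and 7320. Every low-glucose value was above every control value, and av2 was the lowest control by a wide margin. The reads behind these values were 2168, 1353 and 2497, then 8126, 8432 and 9661. The mean rose from 2203 ± 614 to 7822 ± 505 (SD, n = 3), which is a ratio of 3.55. The log2 fold change was 1.87 (SE 0.15, limma adjusted p = 8.73e-07), and it was 1.62 without av2 and 2.03 without av3. By the size of its rise NEAT1 ranked 28 among the 2586 lncRNA genes with a mean of at least 10. The table has 1 value per gene, so the short polyadenylated and the long form of NEAT1 cannot be told apart.

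MALAT1 had 1522, 1294 and 1395 normalised counts in the control libraries and 3131, 3248 and 3001 in low glucose. The groups were well apart and neither had an outlying library. The mean rose from 1404 ± 114 to 3127 ± 124 (SD, n = 3), or 2.23-fold, with a log2 fold change of 1.16 (SE 0.08, adjusted p = 1.91e-07). Leaving out each library in turn gave 1.10 to 1.22. Together, NEAT1 and MALAT1 made up 0.0248% to 0.0373% of each control library and 0.0992% to 0.111% of each low-glucose library. All lncRNA genes took 4.44% to 4.77% and 5.10% to 5.14%. Reads were found for 4935 to 5189 lncRNA genes in control and 5653 to 5778 in low glucose. Every low-glucose library also held more reads on genes than every control library, and these gene numbers were not matched for depth. Whether the libraries were made from polyadenylated or rRNA-depleted RNA is not given in the sources used here.

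FRMD8, the protein-coding gene upstream of NEAT1, had a smaller log2 fold change of 0.27 (adjusted p = 0.0396), and the difference from NEAT1 was not tested.

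Most genes listed for proteins of the bodies that these 2 RNAs occupy had lower RNA. Protein was not measured. Of 20 genes of paraspeckle proteins, 0 were higher, 14 were lower and 6 did not pass, with a median log2 fold change of -0.53. Beside this list and the other lists of protein-coding genes, 14.7% of all genes tested were higher and 16.2% were lower. No share was computed for genes as abundant as those listed. RBM14, which paraspeckle assembly needs, fell from 1408 ± 230 to 593 ± 8.09 normalised counts (log2 fold change -1.23, adjusted p = 9.19e-07). HNRNPM, an RNA-binding splicing regulator, had a log2 fold change of -1.03 and RBMX, an hnRNP of nuclear RNA, of -0.75, and both passed. Of 18 genes of nuclear speckle and SR proteins, 3 were higher, 11 were lower and 4 did not pass, with a median of -0.35. The SR splicing factors SRSF1, SRSF2 and SRSF3 fell, with log2 fold changes of -0.69, -0.59 and -0.57, whereas CLK1, a kinase of SR proteins, rose by 0.62. This count of 14 speckle genes dropped to 9 without av7 and to 9 without av8.

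RNase P makes the 3′ ends shown above, and ELAC2 (tRNase Z) trims the tRNA-like RNA that the cut releases. Of 11 genes listed for these enzymes, 0 were higher, 5 were lower and 6 did not pass, with a median log2 fold change of -0.18. POP1, a subunit of RNase P, fell from 585 ± 27.0 to 224 ± 19.7 normalised counts (log2 fold change -1.38, adjusted p = 2.38e-07). ELAC2, POP4 and RPP14 fell as well, with log2 fold changes of -0.66, -0.54 and -0.49. The count of 5 dropped to 3 without av7 and to 3 without av9. Heat shock factor is known to drive NEAT1 in heated cells, and its part in the rise of NEAT1 here was not tested. Of 12 heat shock factor and heat shock genes, 0 were higher, 9 were lower and 3 did not pass, with a median of -0.44. The factors HSF1 and HSF2 had log2 fold changes of 0.20 and -0.16 and did not pass (limma adjusted p = 0.128 and 0.506). The inducible chaperones HSPA1A and HSPA1B fell, with log2 fold changes of -1.45 and -1.22, as did their co-chaperone BAG3 (-0.93) and HSP90AA1 (-0.83).

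**Figure D2:**
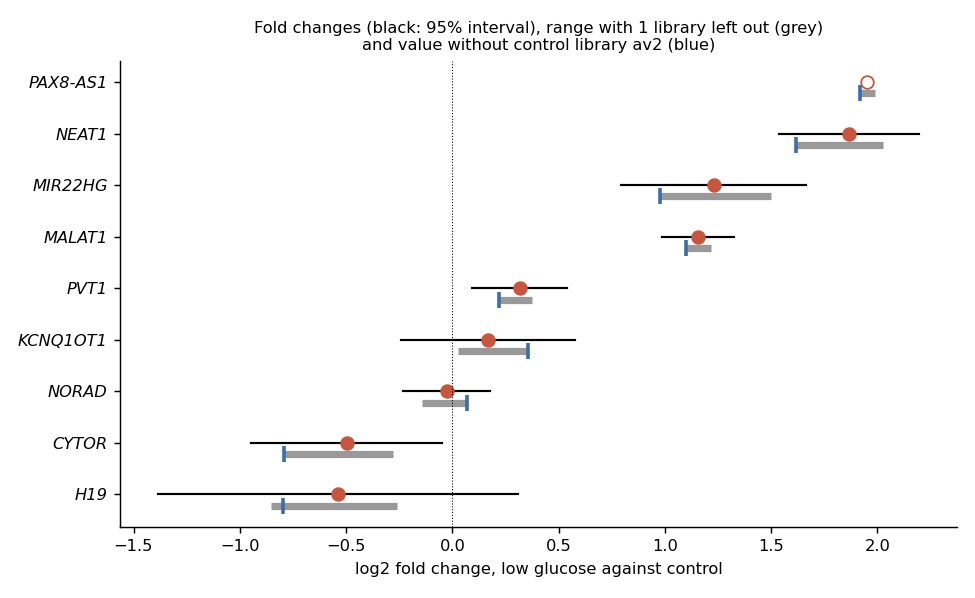
Log2 fold change of each lncRNA in low glucose against control (points, with the 95% interval of limma in black; open point and no interval for PAX8-AS1, which was not tested), with the range of values after leaving out 1 library in grey and the value without control library av2 in blue. NEAT1, MIR22HG and MALAT1 lie above 0 in every case, NORAD lies across 0, and CYTOR moves from -0.50 to -0.79 without av2.

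PAX8-AS1, transcribed from chr2:113211421-113276581 (hg38, plus strand) across the gene of the transcription factor PAX8, was picked for its rise. It had 141, 135 and 148 normalised counts in the control libraries and 566, 561 and 521 in low glucose. All low-glucose values were far above all control values and the libraries within each group were close together. The mean was 141 ± 6.39 in control and 549 ± 24.8 in low glucose (SD, n = 3), a ratio of 3.89 and a log2 fold change of 1.95. The reads were 126, 121 and 138 in control and 588, 568 and 687 in low glucose. It ranked 20 among the 2586 lncRNA genes with a mean of at least 10.

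PAX8 lies on the other strand, and 1651 bp of its exons overlap those of PAX8-AS1. PAX8 rose from 76.8 ± 6.47 to 194 ± 22.9 normalised counts (log2 fold change 1.32, adjusted p = 9.29e-06). The strand setting of the counting is not given in the sources used here, so reads in the shared stretch cannot be told apart between the genes. The next protein-coding genes rose as well. PSD4 had a log2 fold change of 0.58 (adjusted p = 0.00723) and ZNG1B had 0.56 (adjusted p = 4.02e-04).

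A promoter of PAX8-AS1 consists of a tandem repeat, which is shown because few promoters hold one. It spans chr2:113236019-113236318 (plus strand, RefSeq on GRCh38.p14), from 250 bases before to 50 after a transcript start, and 76.7% of its bases are G or C. The capitals mark a word of 15 bases that occurs 6 times at a spacing of 44 to 45 bases. A word of this length occurs at least as often in 0.709% of the 35116 promoters in the RefSeq table.
PAX8-AS1 promoter: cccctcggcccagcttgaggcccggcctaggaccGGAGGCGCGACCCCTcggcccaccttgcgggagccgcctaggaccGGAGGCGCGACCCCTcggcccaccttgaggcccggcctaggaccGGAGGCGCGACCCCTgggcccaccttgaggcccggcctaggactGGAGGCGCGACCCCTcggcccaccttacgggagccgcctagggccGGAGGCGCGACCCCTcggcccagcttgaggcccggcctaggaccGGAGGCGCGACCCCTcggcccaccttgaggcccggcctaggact

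The promoters of 6 of the 9 lncRNAs were in the table and were searched on both strands for letters bound by stress factors. The letters were TGAGTCA (AP-1, in 4.95% of all promoters), CACGTG (E-box, 7.26%), TGATGNAAT (CEBP-ATF element, 0.991%), GAANNTTC (heat shock, 6.77%), TGACGTCA (CRE, 1.85%) and ACGTG (hypoxia core, which the E-box contains, 21.4%). The promoters of PAX8-AS1, MALAT1 and H19 held none of them. That of MIR22HG held the hypoxia core and that of NORAD an E-box with the core inside it. That of CYTOR held the AP-1 letters at 2 places, 19 and 9 bases before the start.

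The profiles most like that of PAX8-AS1 over the 6 libraries, by Euclidean distance between centred log2 values of 15235 genes, were those of DDIT4, AKR1C1 and ABCC3. DDIT4, an inhibitor of mTORC1 signalling, was at a distance of 0.137, and its values were 997, 915 and 1106 in control and 3906, 3725 and 3498 in low glucose. AKR1C1, an aldo-keto reductase, was at 0.140 and ABCC3, an export pump, at 0.165. For NEAT1 the nearest were JDP2, a bZIP repressor of AP-1 sites (0.176), the lncRNA ENSG00000278367 (0.294) and the reductase DHRS2 (0.327). JDP2 had 69.5, 47.9 and 74.9 normalised counts in control and 250, 255 and 229 in low glucose. All these genes were picked for likeness over the same 6 libraries, so their shared pattern follows from the choice. Shared regulation was not tested.

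MIR22HG, the host transcript of miR-22, rose. It lies at chr17:1711447-1717174 (hg38, minus strand), and the 2 mature forms of miR-22 come from it. They are shown with the seed, bases 2 to 8, in capitals (RefSeq, GRCh38.p14), and their seeds differ.
miR-22-3p: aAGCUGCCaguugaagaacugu
miR-22-5p: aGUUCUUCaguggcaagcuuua
The microRNA gene MIR22 was listed at 0 reads in all libraries, so the values are those of the host transcript and not of mature miR-22. MIR22HG had 108, 78.0 and 162 normalised counts in control and 296, 228 and 263 in low glucose. The controls were spread widely, with av2 lowest, yet the lowest low-glucose value was above the highest control. The mean rose from 116 ± 42.4 to 262 ± 34.0 (SD, n = 3), or 2.27-fold. The log2 fold change was 1.23 (SE 0.20, adjusted p = 3.51e-04) and 0.98 without av2.

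TLCD2, the protein-coding gene 1070 bp downstream of MIR22HG on the same strand, rose as well. Its values rose from 181 ± 24.3 to 456 ± 30.5 (log2 fold change 1.34, adjusted p = 1.37e-06). On the other side, SERPINF2, which encodes a plasmin inhibitor, had at most 3.36 normalised counts in control and 15.4, 28.6 and 11.4 in low glucose (log2 fold change 2.78, adjusted p = 0.00259).

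NORAD was the most abundant of the 9 per kb of annotated exon and did not pass the test. It lies at chr20:36045618-36051018 (hg38, minus strand) in a single exon and binds PUMILIO proteins through the PUMILIO response element, UGUANAUA, in which N is any base. The transcript of 5401 nt holds 15 of these elements, or 2.78 per kb. Of 4511 lncRNA genes whose longest transcript has at least 2000 nt, 27.7% hold an element, 5 hold as many as NORAD and 5 hold as many per kb. Among the other 8 lncRNAs, KCNQ1OT1 holds 9 in 91667 nt, NEAT1 holds 6 in 22743 nt, PAX8-AS1 holds 2 in 11799 nt and the other 5 hold 0. Elements 1 and 15, which stand alone, and elements 4 and 5, whose starts are 9 bases apart, are shown as examples, each element in capitals with its flanks and U written as T. Their positions are chr20:36050182-36050211, chr20:36049501-36049530, chr20:36049492-36049521 and chr20:36046344-36046373 on the minus strand.
element 1: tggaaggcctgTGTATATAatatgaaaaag
element 4: ttacttatctgTGTATATAgtgtacataaa
element 5: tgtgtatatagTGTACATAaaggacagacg
element 15: attagcctattTGTAAATAcctttgttata

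**Figure D3:**
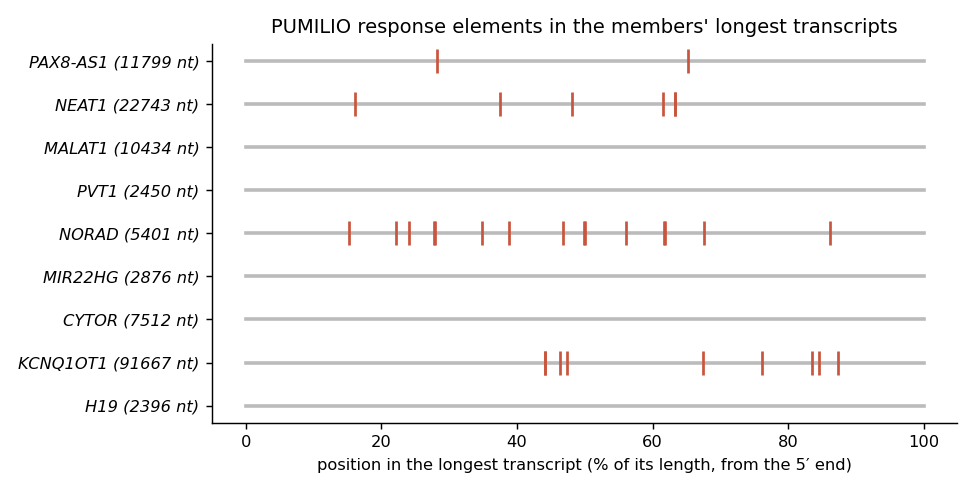
Position of each PUMILIO response element (red mark) along the longest transcript of each lncRNA, in percent of its length from the 5′ end; the length in nt is beside the name. NORAD holds 15 elements, spread over most of its length, and MALAT1, PVT1, MIR22HG, CYTOR and H19 hold 0.

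NORAD had 3392, 3776 and 2828 normalised counts in control and 3167, 3237 and 3338 in low glucose. All low-glucose values fell within the range of the controls. The log2 fold change was -0.03 with a 95% interval of -0.23 to 0.18 (adjusted p = 0.859). Of 9 genes of NORAD partner proteins, 0 were higher, 6 were lower and 3 did not pass, with a median of -0.44. The lower ones encode nuclear proteins, among them the mRNA export adaptor ALYREF (log2 fold change -0.83), RBMX (-0.75), the spliceosome protein CDC5L (-0.64) and the RNA-binding protein KHDRBS1 (-0.50). The flanking genes CNBD2 and EPB41L1 had log2 fold changes of 0.14 and 0.22 and did not pass (adjusted p = 0.736 and 0.322).

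CYTOR, a cytoplasmic lncRNA linked to cytoskeletal genes and tumour growth, did not pass, and its value depended on the control libraries used. It lies at chr2:87454781-87636740 (hg38, plus strand). Its values were 150, 89.2 and 182 normalised counts in control and 103, 88.9 and 94.0 in low glucose. The groups overlapped through av2, which lay among the low-glucose values. The log2 fold change was -0.50 (95% interval -0.95 to -0.05, adjusted p = 0.0886). Without av2 it was -0.79 and passed (adjusted p = 1.76e-04), whereas without av3 it was -0.28 (adjusted p = 0.300) and without av1 -0.42 (adjusted p = 0.262). With quantile normalization of all 6 libraries it was -0.61 and passed (adjusted p = 0.0316).

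MIR4435-2HG, the paralogue of CYTOR elsewhere on chromosome 2, fell from 394 ± 25.3 to 297 ± 6.96 normalised counts (log2 fold change -0.41, adjusted p = 0.00433). The paralogues share 23.9% of the 150-base words of CYTOR, so reads from the shared part cannot be told apart. LINC01943, whose exons overlap 405 bp of CYTOR on the other strand, had a log2 fold change of -0.21 and did not pass (adjusted p = 0.579).

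PVT1, the neighbour of MYC and often amplified with it in tumours, showed a small rise that depended on the libraries and the test. It lies at chr8:127794526-128187101 (hg38, plus strand). It had 331, 273 and 340 normalised counts in control and 399, 376 and 396 in low glucose. The groups did not overlap, with av2 the lowest control. The mean was 315 ± 36.3 in control and 390 ± 12.3 in low glucose (SD, n = 3). The log2 fold change was 0.32 (SE 0.10, adjusted p = 0.0317). The call was lost in 7 of 15 alternatives, among them DESeq2 (adjusted p = 0.0602) and the fits without av1 (0.0536), av2 (0.0698), av7 (0.120), av8 (0.0769) or av9 (0.111). Without av2 the log2 fold change was 0.22.

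MYC, 51575 bp upstream of PVT1, rose from 2942 ± 195 to 4019 ± 80.6 normalised counts (log2 fold change 0.45, adjusted p = 3.97e-04). CYRIB, the nearest tested protein-coding gene on the other side, lies 1652492 bp away and fell by 0.32 on the log2 scale (adjusted p = 0.00947). The pseudogene ENSG00000278275, with 295 bp of exon on the other strand of PVT1, had a log2 fold change of 0.94 and did not pass (adjusted p = 0.0546).

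**Figure D4:**
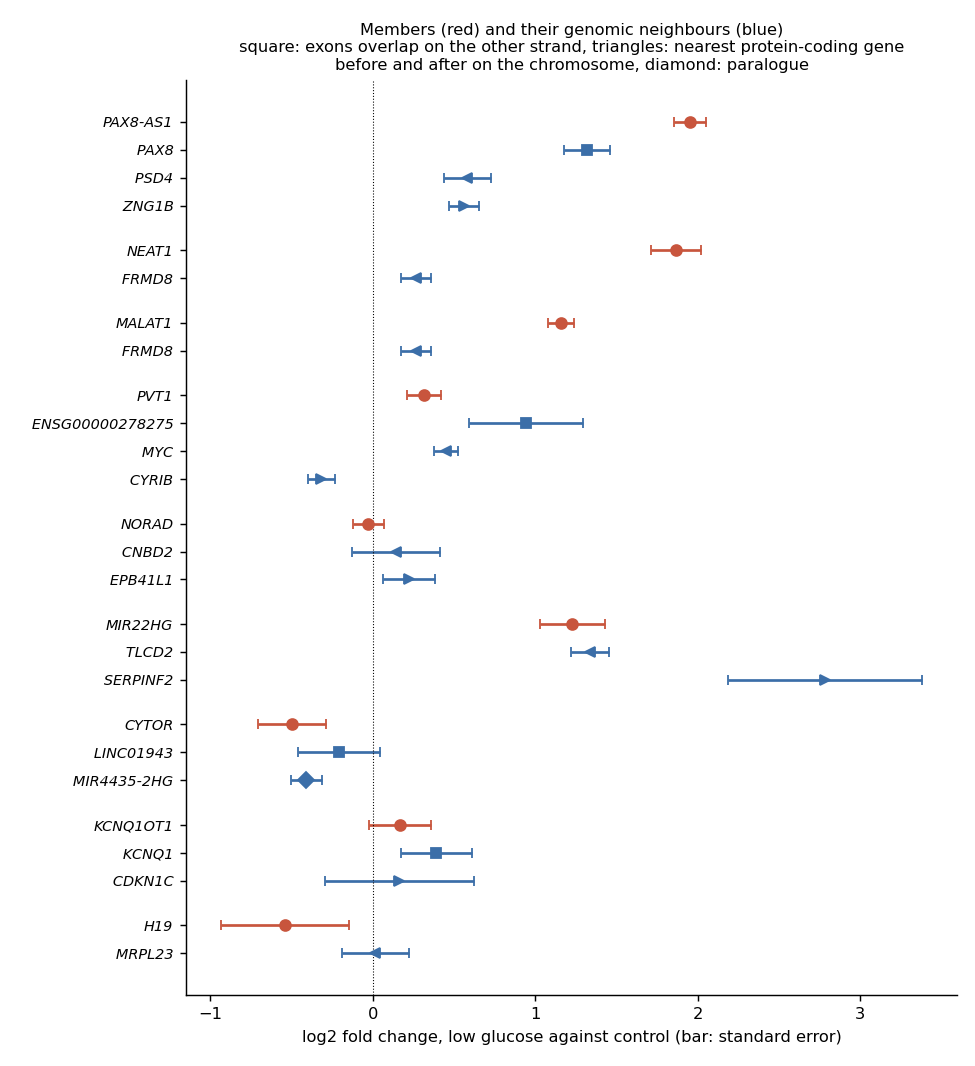
Log2 fold change in low glucose against control, with the standard error as bars, of each lncRNA (red circles) and of genes with a mean of at least 10 that overlap it on the other strand (squares), flank it (triangles) or are its paralogue (diamond). PAX8 at 1.32 and TLCD2 at 1.34 lie near PAX8-AS1 and MIR22HG, whereas FRMD8 lies well below NEAT1 and MALAT1.

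KCNQ1OT1 and H19, the imprinted lncRNAs of chromosome band 11p15, were low and did not pass. KCNQ1OT1 (chr11:2597308-2700003, hg38, minus strand) had 61.7, 98.1 and 69.5 normalised counts in control and 90.4, 88.9 and 74.3 in low glucose. The groups overlapped, and the log2 fold change was 0.17 with a 95% interval of -0.24 to 0.58 (adjusted p = 0.559). H19 (chr11:1995166-2004552, hg38, minus strand) had 25.8, 12.3 and 18.2 in control and 19.2, 7.90 and 11.4 in low glucose. These rested on 11 to 23 and 8 to 20 reads, the groups overlapped, and the log2 fold change was -0.54 with a 95% interval of -1.38 to 0.31 (adjusted p = 0.334). The interval is wide and holds both falls and rises, so the direction of any change was not resolved. MIR675, the microRNA gene inside H19, was listed at 0 reads.

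Of 14 genes of the 11p15 imprinted domains, 9 were tested, of which 1 was higher, 2 were lower and 6 did not pass. SLC22A18, a transporter gene, rose from 58.7 ± 8.45 to 155 ± 13.9 normalised counts (log2 fold change 1.39, adjusted p = 1.75e-05). CD81, a tetraspanin, and NAP1L4, a histone chaperone, fell, with log2 fold changes of -0.52 and -0.24. KCNQ1, which shares 121 bp of exon with KCNQ1OT1 on the other strand, had a log2 fold change of 0.39 (adjusted p = 0.192). CDKN1C and MRPL23 had 0.16 and 0.02 and did not pass.

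Between genes, levels were compared as reads per kb of annotated exon, scaled to the reads on genes of the library (RPKM). In control the order was NORAD (55.8 ± 7.11), MALAT1 (12.2 ± 1.19), NEAT1 (8.80 ± 2.59), MIR22HG (3.39 ± 1.29), PVT1 (1.12 ± 0.150), CYTOR (0.719 ± 0.251), PAX8-AS1 (0.579 ± 0.0364), H19 (0.493 ± 0.184) and KCNQ1OT1 (0.0745 ± 0.0172; SD, n = 3). The library values of CYTOR overlapped those of PAX8-AS1, and those of PAX8-AS1 overlapped those of H19. In low glucose NEAT1 (32.9 ± 2.03) stood above MALAT1 (28.7 ± 1.05), and PAX8-AS1 (2.38 ± 0.103) stood above PVT1 (1.47 ± 0.0499). NORAD remained highest at 57.6 ± 1.61, followed after NEAT1 and MALAT1 by MIR22HG (8.09 ± 1.06). CYTOR (0.513 ± 0.0390) and H19 (0.355 ± 0.161) overlapped, and KCNQ1OT1 was lowest at 0.0875 ± 0.00907. The place of PVT1 in the order rests on the length used. Per kb of the longest transcript the mean of PVT1 stood above NEAT1 and MIR22HG in control (11.7 against 8.81 and 3.66). In low glucose it stood above PAX8-AS1 (15.3 against 4.46). The control libraries of PVT1 (9.88 to 12.7) and NEAT1 (5.87 to 10.8) overlapped by this measure. PVT1 has 25431 bp of annotated exon and a longest transcript of 2450 bp, so reads from outside that transcript may raise its value. Both lengths used for NEAT1 (22767 and 22743 bp) include its long form. Its place for the short form, also against NORAD, was not tested.

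**Figure D5:**
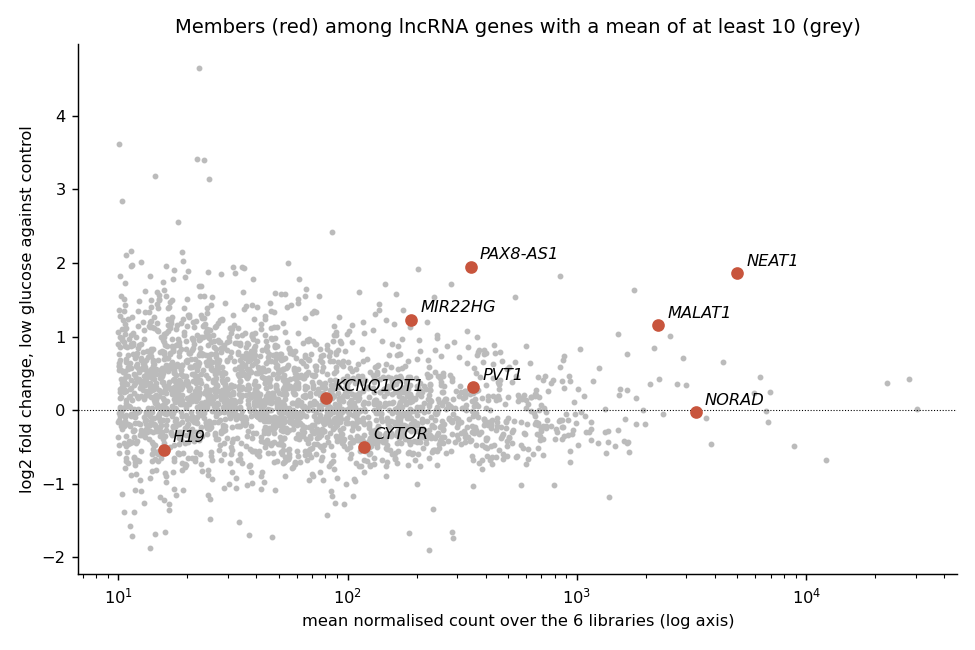
Log2 fold change in low glucose against control plotted over the mean normalised count of the 6 libraries (log axis) for the 2586 lncRNA genes with a mean of at least 10 (grey), with the 9 lncRNAs in red. NEAT1 at 1.87 and MALAT1 at 1.16 lie at the right, where normalised counts, which are not scaled to length, are high. NORAD lies close to 0.

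Other lncRNAs were grouped in 4 lists. Of the lncRNA genes with a mean of at least 10, 29.7% passed and 17.8% were higher. Of all lncRNA genes tested, 18.6% passed and 12.1% were higher. The first list was mixed and held snoRNA hosts beside nuclear and X-inactivation lncRNAs, so it does not stand for nuclear-body lncRNAs. Of its 10 tested lncRNAs, 6 were higher, 1 was lower and 3 did not pass, with a median log2 fold change of 0.39. MIAT, a nuclear lncRNA, rose by 1.61 on the log2 scale (adjusted p = 4.84e-04) from 17.0 ± 4.54 normalised counts. GAS5, a snoRNA host, rose from 1752 ± 641 to 3333 ± 135 (adjusted p = 0.00127). ZFAS1, another snoRNA host, rose by 0.99 and EPB41L4A-AS1 by 0.68 on the log2 scale.

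Of 8 tested lncRNAs linked to DNA damage or hypoxia, 5 were higher, 0 were lower and 3 did not pass, with a median of 0.72. LINC-PINT rose by 1.58, UCA1 by 0.76, LUCAT1 by 0.69 and GABPB1-AS1 by 0.65 on the log2 scale. The count of 5 was 3 without av1, without av7 or without av8.

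Of 12 tested microRNA hosts other than MIR22HG and H19, 5 were higher, 1 was lower and 6 did not pass, with a median of 0.67. MIR503HG had a log2 fold change of 1.85, MIR29B2CHG 1.60, MIR17HG 1.24 and MIR222HG 1.03, all from low values of at most 130 ± 10.2 normalised counts in either group. The lower gene was MIR4435-2HG. Of 20 tested lncRNAs of cancer, 3 were higher, 3 were lower and 14 did not pass, with a median of 0.33. TMPO-AS1, antisense to the start of a lamina gene, fell from 762 ± 85.6 to 376 ± 32.3 normalised counts (log2 fold change -1.01, adjusted p = 4.93e-06). BCYRN1 fell by 1.95 from 20.7 ± 13.2 normalised counts, CRNDE rose by 0.75 and HULC rose by 1.33 from 7.97 ± 6.07 on the log2 scale.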

How the data were processed

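RNA from the 6 MiaPaCa-2 cultures was made into strand-specific libraries with the NEBNext Ultra II Directional kit. According to the submitters' processing notes, reads were trimmed with Trim Galore and mapped to hg38 with STAR 2.7.0e, and DESeq2 was used. RSEM is among the software the study lists, but which tool counted the reads of this table, and with which strand setting, is not given in the sources used here. What the authors deposited is a signal: gene counts after division by a size factor of the library. Multiplying back gave whole reads (tolerance 0.01) for 100% of values. Of the identifiers, 99.5% were in Gencode release 44, which gave positions.

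For genes with a mean of at least 1, log2(value + 1) was tested with limma 3.58.1 (R 4.3.3, trend, two-sided, Benjamini-Hochberg, threshold 0.05). Fold changes on this scale understate those of low genes. DESeq2 1.42.0 and edgeR 4.0.16 on recovered reads were alternatives, beside other scalings, filters, pseudocounts and each library left out. The tests were checked on simulated data in which few genes changed, none of them low, and as many rose as fell. That check does not cover a change as broad as the one here. Python 3.11.15 with pandas 2.3.3 and numpy 2.4.6 was used for the tables and matplotlib 3.10.9 for plots.

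The lncRNAs and lists were chosen with earlier results of these data known. Genes named were the 9 lncRNAs, genes that overlap their exons, the nearest tested protein-coding gene on each side (values given for those with a mean of at least 10), the paralogue of CYTOR, microRNA genes inside them, up to 4 called genes per list with the largest change and a mean of at least 10, and the 3 profiles most like PAX8-AS1 and NEAT1. Some genes and 1 list chosen by this rule are not reported here.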

Additional observations from a re-analysis of the deposited data

How the results depend on the processing

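NEAT1, MALAT1 and MIR22HG remained higher and past the threshold in all 15 alternatives. Of the 120 values of the 8 tested lncRNAs over the alternatives, 108 kept their direction and their side of the threshold, 7 (PVT1) lost the call, 2 (CYTOR) gained it and 3 (NORAD) changed sign. For NORAD the log2 fold change was 0.053 with scaling by total reads and 0.15 with quantile normalization, and ranged from -0.14 (without av3) to 0.068 (without av2) when 1 library was left out, none past the threshold. CYTOR passed with quantile normalization (log2 fold change -0.61, adjusted p = 0.0316) and without av2. The number of all genes past the threshold, 6528, was 4090 without a variance trend, 5486 with DESeq2 and 6554 with edgeR, and ranged from 4298 to 7173 when 1 library was left out. The number of lncRNA genes past it, 937, was 630 with DESeq2 and 860 with edgeR, and ranged from 517 (without av7) to 996 (without av3). The cause of these differences was not tested. Of the 8 tested lncRNAs, 3 to 5 passed in every alternative.

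Control levels were also taken per kb of the longest transcript in place of all annotated exons. Their means were 1.09 for PAX8-AS1, 11.7 for PVT1, 1.70 for CYTOR and 0.712 for H19. This places the mean of PVT1 above those of NEAT1 and MIR22HG, though the library values of PVT1 and NEAT1 overlapped. The speckle list of 14 called genes had 9 with quantile normalization and 8 without a variance trend, and the RNase P list of 5 had 3 without a variance trend. The mixed list of nuclear and snoRNA-host lncRNAs had 4 without a variance trend in place of 7. The DNA damage and hypoxia lncRNAs had 3 with quantile normalization. No paired analysis was possible because replicate numbers are given for 2 columns, both of low glucose. The 3 libraries per group and the low reads of H19 limit what could be detected.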
